A study of Zea mays with 6 samples.

Results

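Roots perceive neighbours, microbes, nutrients and wounds through receptor kinases in the plasma membrane, and relay what they perceive through calcium and protein phosphorylation. The transcripts described here encode these proteins in maize roots. A member was 1 receptor kinase-like probe set given by name, or any probe set of the authors' SAM output (their table from Significance Analysis of Microarrays) whose gene title or target description held one of 7 terms. The terms were protein kinase, receptor kinase, receptor-like kinase, MAP kinase, calmodulin, calcium-dependent and protein phosphatase, and titles of histidine kinases and cyclins were to be left out. A probe set is a group of short oligonucleotides on the array made against 1 transcript. The rule found 187 members among the 17734 probe sets of the array, 61 through their title and 126 through their description alone. That output lists 12255 probe sets, and the 5479 others were not searched. The members fell into 164 transcript clusters of the array's design, and 14 of these clusters held 37 of the probe sets. By title or description they comprised 39 receptor kinases, 45 calcium sensors (calmodulins, their targets and calcium-dependent kinases), 14 members of the MAP kinase cascade, 58 other protein kinases and 31 protein phosphatases. The annotation names 69 of them as maize sequences. It grades the rest by similarity to a protein, nearly always of Arabidopsis, with 83 weak, 33 moderate and 2 strong similarities, so a name below often says only which protein the transcript resembles.

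The plants were maize of the cultivar Nongda108, grown either as an intercrop with peanut of the cultivar Luhua14 (intercropped, 3 arrays) or with no peanut (monocropped, 3 arrays). Both groups grew in a greenhouse under natural light, in a calcareous sandy soil with added nitrogen, phosphorus, potassium, magnesium, copper and zinc, and roots were taken at the reproductive stage. Biotin-labelled cRNA from TRIzol-extracted root RNA was hybridised to Affymetrix maize arrays, whose signal is a scaled brightness on a linear scale. No source used here says whether plants were pooled, or whether each sample had plants and pots of its own. The p-values therefore reflect only the scatter among these 6 samples, and that scatter may be technical. A whole root holds many cell types, and fewer cells of a type cannot be told apart from less RNA per cell.

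In plants a receptor kinase binds a ligand outside the cell with its extracellular domain and phosphorylates partners inside it. Calcium that enters the cytosol is bound by calmodulins, which act on other proteins, and by calcium-dependent protein kinases, which carry their own calcium-binding domain. MAP kinases stand at the end of a cascade of 3 kinases that phosphorylate each other in turn, and protein phosphatases remove the phosphate groups again. These proteins are controlled largely after translation, and an array measures only their transcripts.

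The 6 arrays were alike in brightness, with median signals of 140 to 142 on the intercropped and 135 to 141 on the monocropped arrays, and the correlation of log2 signals between any 2 arrays was 0.912 to 0.970. The control spike bioB had mean signals of 224, 438 and 132 on the intercropped arrays, against 1117, 201 and 198 on the monocropped arrays, so that monocropped replicate 1 stood apart in it. The ratio of 3′ to 5′ signal, a sign of RNA length, was 1.19 to 1.30 on the intercropped and 1.16 to 1.25 on the monocropped arrays for cyclophilin. For GAPDH it was 24.1, 22.0 and 16.3 on the intercropped arrays, against 12.6, 8.87 and 13.5 on the monocropped arrays, with 5′ signals of only 7.98 to 18.8. The 51 probe sets of the root marker list (aquaporins, peroxidases, phytosiderophore and root cap genes) summed to 34000 to 40500 on the intercropped and 30670 to 47590 on the monocropped arrays. Of them 27 were higher and 24 lower in intercropped roots. At an unadjusted p under 0.05 there were 2 higher and 8 lower, beside 5.6% and 5.51% of all probe sets tested. The intercropped arrays all lay above in 0 and all below in 10 (19.6%), beside 8.29% and 8.69% of all probe sets. For 23 green tissue markers the sums were 3694 to 4710 on the intercropped and 3833 to 4628 on the monocropped arrays. The cluster of the small subunit of Rubisco has 5 probe sets, of which the brightest (Zm.6763.2.A1_at) averaged 1346 in intercropped and 1273 in monocropped roots and the other 4 were lower in intercropped roots. One of these, Zm.6763.3.A1_at, averaged 50.7 in intercropped and 194 in monocropped roots and did not overlap. Of all 23 green tissue markers 10 were higher and 13 lower. The intercropped arrays all lay above in 1 and all below in 1, together 8.7%, beside 17.0% of all probe sets. The 1 above was a probe set of the photosystem I assembly gene ycf3 (ZmAffx.1113.1.A1_at), at 276 in intercropped and 153 in monocropped roots. A further ycf3 probe set (ZmAffx.1456.1.S1_at) averaged 219 and 129, with overlap. For 49 markers of dividing cells the sums were 30460 to 39870 on the intercropped and 33420 to 40240 on the monocropped arrays, with 37 of the 49 lower in intercropped roots. The part of these measures in the values below was not tested.

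All 187 members reached a signal of 50 on 3 or more arrays and were tested, and 176 of them reached 50 on every array. In limma's test, adjusted over all 13116 probe sets tested with Benjamini-Hochberg, 0 members had an adjusted p under 0.05, beside 0.0% of all probe sets. The lowest adjusted p of a member was 0.142, and that of any probe set was 0.129. The word higher or lower below therefore compares signals and is no call. At an unadjusted p under 0.05 there were 30 members, or 16.0%, beside 11.1% of all probe sets. Of these, 12 were higher in intercropped roots, beside 5.6% of all probe sets, and 18 were lower, beside 5.51%. A q-value under 5% was given to 0 members in the authors' deposited table, beside 0.0408% of its probe sets, and the lowest q-value of a member was 9.66%, that of the receptor kinase-like probe set given by name in the rule.

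Differences to lower signals were the more frequent ones in intercropped roots. The log2 difference (intercropped minus monocropped) was positive for 84 members and negative for 103, so that 44.9% were positive, beside 51.9% of all probe sets. Its median was -0.05 over the members and 0.01 over all probe sets tested. In 14 members all 3 intercropped arrays lay above all 3 monocropped arrays, and in 31 members all 3 lay below, together 24.1% of the members beside 17.0% of all probe sets. By direction the backgrounds were 8.29% above and 8.69% below. With the medians of the arrays set equal, a comparison added after seeing the data, these counts were 12 above and 35 below, beside 6.63% and 10.6% of all probe sets. The counts at an unadjusted p under 0.05 became 8 higher and 23 lower under that scaling, and they also moved with single arrays, to 7 higher without monocropped replicate 2 and to 9 lower without intercropped replicate 2. Past a 2-fold difference lay 1 member that was higher, beside 1.3% of all probe sets, and 4 that were lower, beside 1.15%. The probe sets named below are, in each class, the 4 with the smallest p among those without overlap and the 2 with the highest signal, and over all members the largest differences without overlap. Signals of different probe sets do not compare transcript levels. Members named outside this rule were picked after their values were seen.

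**Figure D1:**
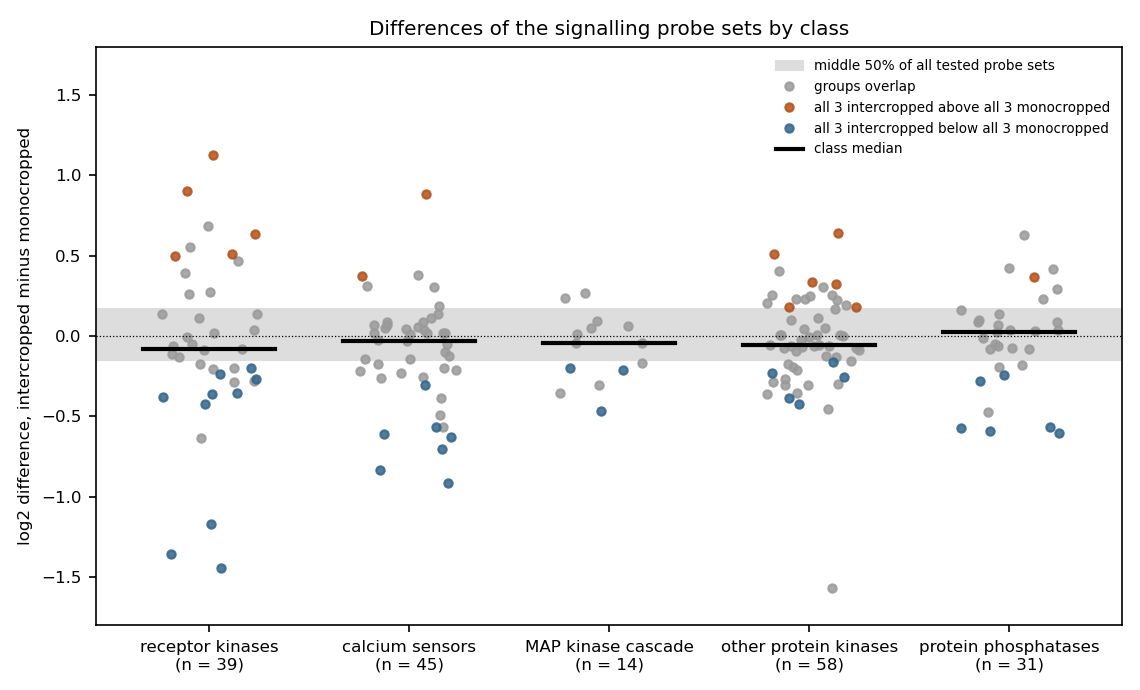
Each point is 1 of the 187 signalling probe sets, placed by class on the horizontal axis and by its log2 difference, intercropped minus monocropped, on the vertical axis. Orange points are members whose 3 intercropped arrays lay above the 3 monocropped arrays, blue points those that lay below, grey points those whose groups overlapped; black bars are class medians (-0.08, -0.03, -0.04, -0.06 and 0.02 from left to right) and the grey band is the middle 50% of all 13116 probe sets tested. The points that lie farthest from 0 without overlap are receptor kinases.

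**Figure D2:**
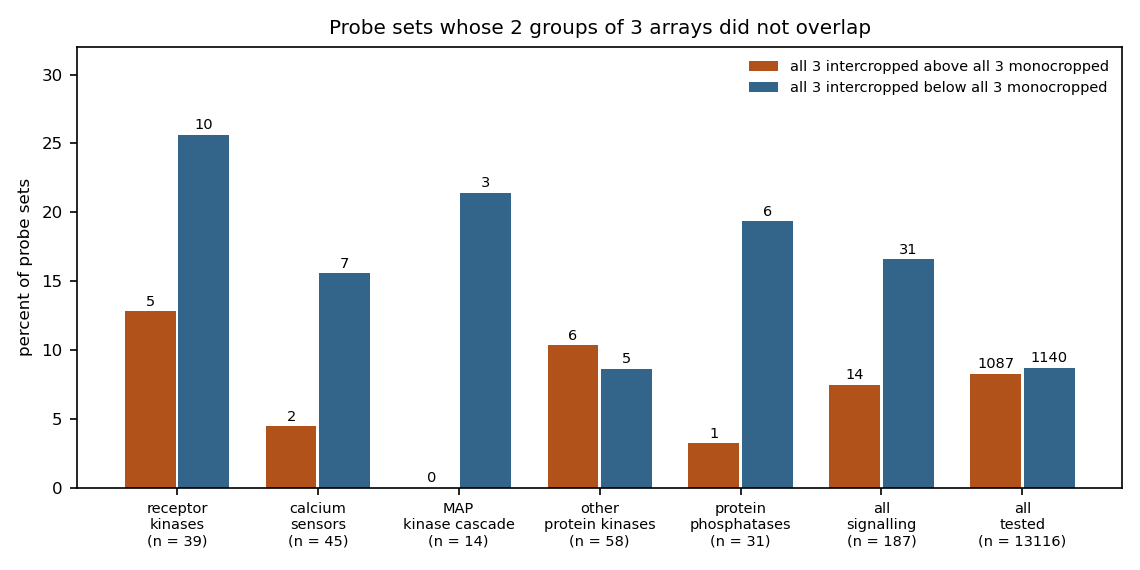
Bars give the percent of probe sets of each class, of all 187 members and of all 13116 probe sets tested whose groups of 3 arrays did not overlap, orange with the intercropped arrays above and blue with them below; the number of probe sets stands over each bar. Over all members 14 lay above and 31 below, and the blue bar is the taller one in every class except the other protein kinases.

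Receptor kinases held the widest spread of differences among the 5 classes. The middle 50% of their log2 differences ran from -0.27 to 0.27, against -0.15 to 0.17 over all probe sets. Their median SE was also the largest of the 5 classes, at 0.207 beside 0.175 over all probe sets. Its part in the spread was not tested. Of the 39 probe sets 16 were higher and 23 lower in intercropped roots, with a median of -0.08, and 11 (28.2%) had an unadjusted p under 0.05, beside 11.1% of all probe sets, 6 of them higher and 5 lower. In 5 the intercropped arrays all lay above and in 10 all below the monocropped arrays, together 38.5%, beside 8.29% above and 8.69% below over all probe sets.

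The lowest p of all members was that of the probe set given by name in the rule, whose transcript weakly resembles a receptor protein kinase of Arabidopsis. Its signals were 92.8, 85.3 and 98.0 in intercropped roots, against 194, 325 and 209 in monocropped roots. The intercropped arrays lay close together and every one was below every monocropped array. The means were 92.0 ± 6.33 in intercropped and 242 ± 71.8 in monocropped roots (SD, n = 3 each). The log2 difference was -1.36 ± 0.21 (SE), or 2.57-fold lower in intercropped roots, at a limma adjusted p of 0.142. In the authors' deposited table the fold change was a ratio of 0.380 with a q-value of 9.66%, and this was the only member with a q-value under 10%, beside 28 of all 12255 probe sets there, or 0.228%.

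A similar pattern was found in a pair of other receptor-like kinases. Zm.18322.1.A1_at had 155, 107 and 92.5 in intercropped roots, against 278, 274 and 409 in monocropped roots, with a log2 difference of -1.45 ± 0.24 (SE; limma adjusted p = 0.166). Zm.17245.1.S1_at had 397, 256 and 321 in intercropped roots, against 808, 875 and 527 in monocropped roots, with a log2 difference of -1.17 ± 0.24 (SE; limma adjusted p = 0.216). In both, the highest intercropped array was below the lowest monocropped array, and with the transcript of the lowest p these were the 3 largest differences to lower signals among members whose groups did not overlap. Each resembles a different Arabidopsis receptor-like kinase, all with weak similarity. Zm.9223.1.A1_at, a further receptor kinase-like transcript and among the 2 brightest of its class, had 659, 654 and 789 in intercropped roots, against 964, 931 and 909 in monocropped roots. Its groups did not overlap either, but the difference was smaller, at -0.42 ± 0.12 (SE; limma adjusted p = 0.287).

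Other receptor kinases were higher in intercropped roots. The largest such difference among all members was that of Zm.17498.1.A1_at, weakly similar to a putative receptor-like kinase, with signals of 197, 97.8 and 212 in intercropped roots, against 77.5, 57.8 and 87.8 in monocropped roots. Its intercropped replicate 2 lay only a little above the monocropped arrays, and the log2 difference was 1.13 ± 0.32 (SE; limma adjusted p = 0.287). The gene ltk1 (Zm.382.1.S1_at), a maize receptor-type kinase with leucine-rich repeats outside the membrane, had 842, 1090 and 688 in intercropped roots, against 581, 349 and 474 in monocropped roots. All intercropped arrays were above all monocropped ones, with a log2 difference of 0.91 ± 0.24 (SE; limma adjusted p = 0.274).

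The 3 probe sets that resemble the Arabidopsis leucine-rich repeat transmembrane protein kinase 1 differed from ltk1 in cluster but not in direction; they were singled out after their values were seen. Zm.9097.1.A1_at had 163, 255 and 136 in intercropped roots, against 149, 91.5 and 100.3 in monocropped roots, with a log2 difference of 0.68 ± 0.28 (SE). Zm.11939.1.A1_at had 602, 783 and 555 in intercropped roots, against 579.6, 370.0 and 385 in monocropped roots, with a log2 difference of 0.55 ± 0.22 (SE), and Zm.2717.1.A1_at had one of 0.47 ± 0.24. In these 3 the groups overlapped. Over the 4 probe sets with ltk1 the median log2 difference was 0.62, and relative to each probe set's mean over the 6 arrays the median stood at 0.20, 0.75 and 0.10 on the intercropped arrays, against -0.01, -0.57 and -0.43 on the monocropped arrays. The arrays numbered 2 lay farthest apart, and without intercropped replicate 2 the median was 0.42.

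The somatic embryogenesis receptor-like kinases, or SERKs, act in Arabidopsis as co-receptors that pair with ligand-binding receptor kinases. Of 4 probe sets 1 was higher and 3 lower in intercropped roots, and the median log2 difference was -0.16. The transcript of serk3 (Zm.7889.1.A1_at) had 358, 315 and 328 in intercropped roots, against 456, 424 and 404 in monocropped roots, with a log2 difference of -0.36 ± 0.12 (SE). That of serk2 (Zm.2906.1.S1_at) had 537, 522 and 461 in intercropped roots, against 599, 605 and 582 in monocropped roots, with a log2 difference of -0.24 ± 0.12. In serk2 and serk3 the groups did not overlap, whereas serk1 at -0.09 and a serk-like transcript (Zm.9430.1.A1_at) at 0.14 overlapped. In 2 of the 4 the intercropped arrays thus all lay below, beside 8.69% of all probe sets, and 17.0% in either direction. Only serk3 had an unadjusted p under 0.05 in limma's test, beside 11.1% of all probe sets, and that of serk2 was 0.083. This family too was taken out of its class after its values were seen.

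Among the calcium sensors, transcripts of calmodulin itself differed little while several calcium-dependent kinases were lower in intercropped roots. The class held 45 probe sets, 21 higher and 24 lower, and the median log2 difference was -0.03. At an unadjusted p under 0.05 there were 1 higher and 7 lower, together 17.8%, beside 11.1% of all probe sets. In 2 the intercropped arrays all lay above and in 7 all below the monocropped arrays, beside 8.29% and 8.69% of all probe sets. The class median was -0.13 without intercropped replicate 3 and 0.01 without intercropped replicate 2.

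The brightest calmodulin probe sets were nearly level between the groups. CaM1 (Zm.3077.2.S1_x_at), a maize calmodulin, had 2985, 2573 and 3461 in intercropped roots, against 2755, 2792 and 2981 in monocropped roots, with a log2 difference of 0.07 ± 0.12 (SE). The calmodulin rcalm (Zm.352.1.S1_at) had 2561, 2360 and 2731 in intercropped roots, against 2472, 2440 and 2529 in monocropped roots, with a log2 difference of 0.04 ± 0.09. In both the groups overlapped, and without intercropped replicate 3 both differences turned to just below 0, at -0.04 for CaM1 and -0.01 for rcalm. Probe set names that end in x_at or s_at mark probes that other transcripts can also bind, which matters for calmodulins since they are a family of closely alike sequences. Over all 20 probe sets of calmodulin and calmodulin-like proteins 12 were higher and 8 lower, and the median log2 difference was 0.03.

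In 3 of these 20 (15.0%) the groups did not overlap, beside 17.0% of all probe sets. Zm.17111.1.A1_at, weakly similar to a putative calmodulin, had 72.6, 100.2 and 104 in intercropped roots, against 53.3, 49.7 and 45.5 in monocropped roots, with a log2 difference of 0.89 ± 0.19 (SE; limma adjusted p = 0.219). All its intercropped arrays were above its monocropped arrays, of which 2 lay under 50. The putative calmodulin Umi12 (ZmAffx.467.1.A1_at) had 436, 275 and 314 in intercropped roots, against 556, 607 and 634 in monocropped roots, with a log2 difference of -0.84 ± 0.19 (SE; limma adjusted p = 0.219). Here every intercropped array was below every monocropped one, but the other probe set of Umi12 (ZmAffx.467.1.S1_at) had 183, 182 and 291 in intercropped roots, against 267, 184 and 176 in monocropped roots, with overlapping groups and a log2 difference of 0.06 ± 0.25. The 2 probe sets of this gene differed, and whether both read the same transcript cannot be told here. The remaining one, Zm.18000.1.A1_at, weakly similar to calmodulin 7, had 97.5, 65.3 and 107 in intercropped roots, against 137, 155 and 119 in monocropped roots, with a log2 difference of -0.63 ± 0.22.

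The calcium-dependent kinases numbered 21 probe sets, a grouping made within the class after the values were seen. Of these 8 were higher and 13 lower in intercropped roots, and the median log2 difference was -0.21. At an unadjusted p under 0.05 there were 0 higher and 5 lower, beside 5.6% and 5.51% of all probe sets, and the same 5 lay in only 3 transcript clusters. Leaving out intercropped replicate 1 gave a median of -0.27 and leaving out monocropped replicate 1 one of -0.05, while the count of 5 was 2 without intercropped replicate 2 and 3 without intercropped replicate 3.

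The kinase ZmCPK11 is covered by 3 probe sets. Zm.6306.1.A1_a_at had 100.4, 84.7 and 100.4 in intercropped roots, against 141, 173 and 124 in monocropped roots, with a log2 difference of -0.61 ± 0.17 (SE; limma adjusted p = 0.287). Zm.6306.2.A1_at had 205, 187 and 182 in intercropped roots, against 265, 349.7 and 244 in monocropped roots, with a log2 difference of -0.57 ± 0.17 (SE; limma adjusted p = 0.31). In both the intercropped arrays were all below the monocropped arrays, while the third, Zm.6306.1.A1_at at -0.49, had overlapping groups. These 3 belong to 1 transcript cluster and are not independent of each other.

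The calcium-dependent kinase CDPK1 (Zm.20.1.S1_at) had 629, 500.2 and 514 in intercropped roots, against 1261, 765 and 726 in monocropped roots, with a log2 difference of -0.71 ± 0.23 (SE). The kinase LOC542227 had 388, 224 and 236 in intercropped roots, against 739.7, 474 and 392 in monocropped roots by Zm.39.1.S1_s_at, with a log2 difference of -0.92 ± 0.30, and its second probe set Zm.39.1.S1_at gave -0.57. In CDPK1 and in both probe sets of LOC542227 monocropped replicate 1 was the highest array and intercropped replicate 1 the highest of its group. The CDPK-related kinase ZmCRK3 (Zm.42.1.S1_at) had 103, 118 and 104 in intercropped roots, against 133, 145 and 124 in monocropped roots, without overlap and with a log2 difference of -0.30 ± 0.14. Other members were level, among them cdpk1 (Zm.41.1.S1_at) at 0.08 and MZECDPK2 (Zm.221.1.A1_at) at 0.02. The calcium and calmodulin dependent kinase CCamK (Zm.18775.1.A1_at), which in legumes is needed for symbiosis with fungi and rhizobia, had 183, 196 and 224 in intercropped roots, against 202, 234 and 244 in monocropped roots. Its groups overlapped, and the log2 difference was -0.18 ± 0.15 (SE).

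**Figure D3:**
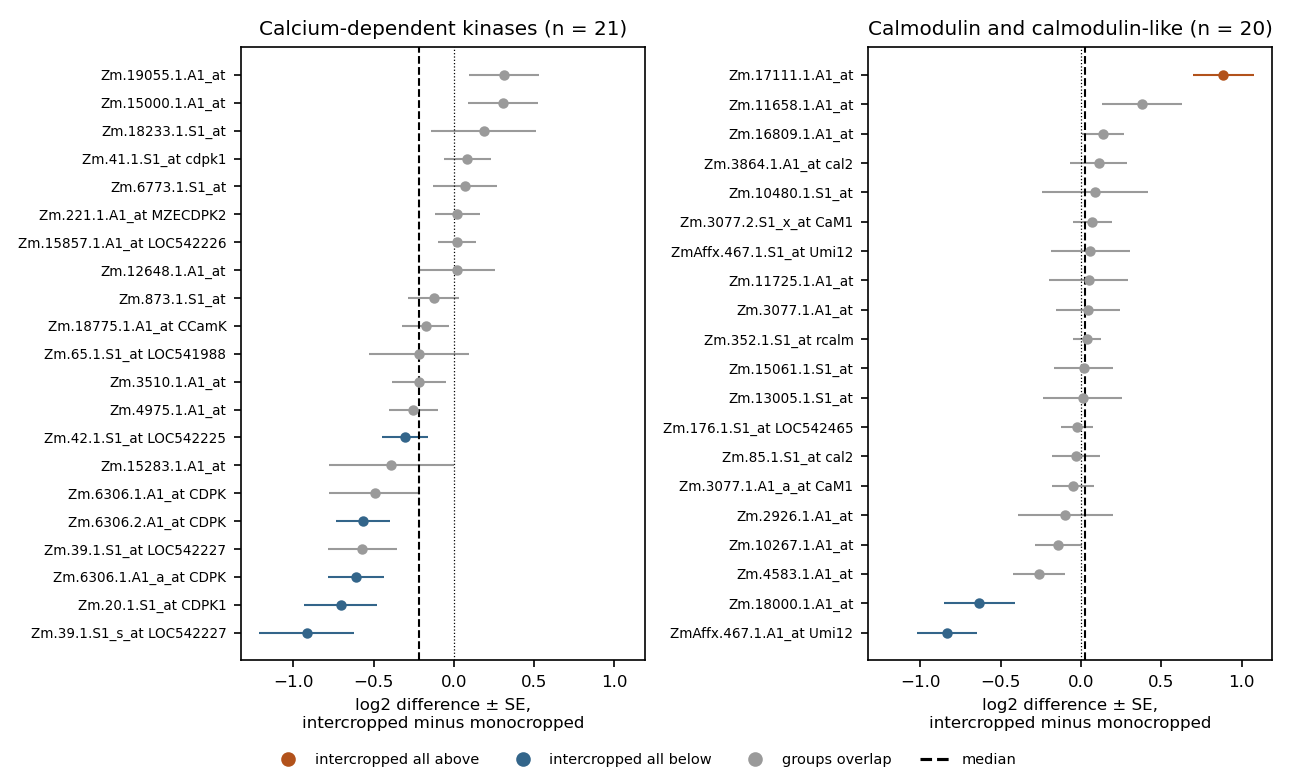
Points are log2 differences, intercropped minus monocropped, with their SE for the 21 probe sets of calcium-dependent kinases on the left and the 20 of calmodulin and calmodulin-like proteins on the right, each sorted from higher to lower. Dashed lines are the medians, -0.21 and 0.03; blue points had all intercropped arrays below the monocropped arrays, the orange point above, and grey points overlapped.

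The MAP kinase cascade showed small differences. Its 14 probe sets had a median log2 difference of -0.04 and none past -0.47 or 0.27. Of these 6 were higher, 8 lower, and 1 (7.14%) had an unadjusted p under 0.05, beside 11.1% of all probe sets. That one was MPK4 (Zm.217.1.S1_at), a MAP kinase and the brightest of the class, with 1535, 1228 and 1364 in intercropped roots, against 2304, 1808 and 1634 in monocropped roots. The groups did not overlap, and the log2 difference was -0.47 ± 0.15 (SE; limma adjusted p = 0.345).

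Another 2 MAP kinases had groups that did not overlap, by smaller margins. With MPK4 these were 3 of the 14 probe sets, or 21.4%, beside 17.0% of all probe sets. MPK5 (Zm.218.1.A1_a_at) had 805, 781 and 816 in intercropped roots, against 1029, 876 and 866 in monocropped roots, with a log2 difference of -0.20 ± 0.12 (SE), and the salt-induced kinase simk1 (Zm.9515.1.S1_at) had 481, 419 and 516 in intercropped roots, against 526, 584 and 528 in monocropped roots, with a log2 difference of -0.21 ± 0.13. In both every intercropped array was below every monocropped one, and the other 2 probe sets of MPK5, at -0.17 and -0.04, overlapped. One step up, the MAP kinase kinase mek1 (Zm.6861.1.A1_at) had 1177, 1177 and 1201 in intercropped roots, against 1200, 1226 and 1106 in monocropped roots, with a log2 difference of 0.01 ± 0.10 whose sign turned with the medians of the arrays set equal. The NPK1-related kinase mapkkk1, at the top of such a cascade, was at -0.04, and the MAP kinase phosphatase mkp1, which reverses it, at 0.06. The signals of mek1, mapkkk1 and mkp1 overlapped between the groups.

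**Figure D4:**
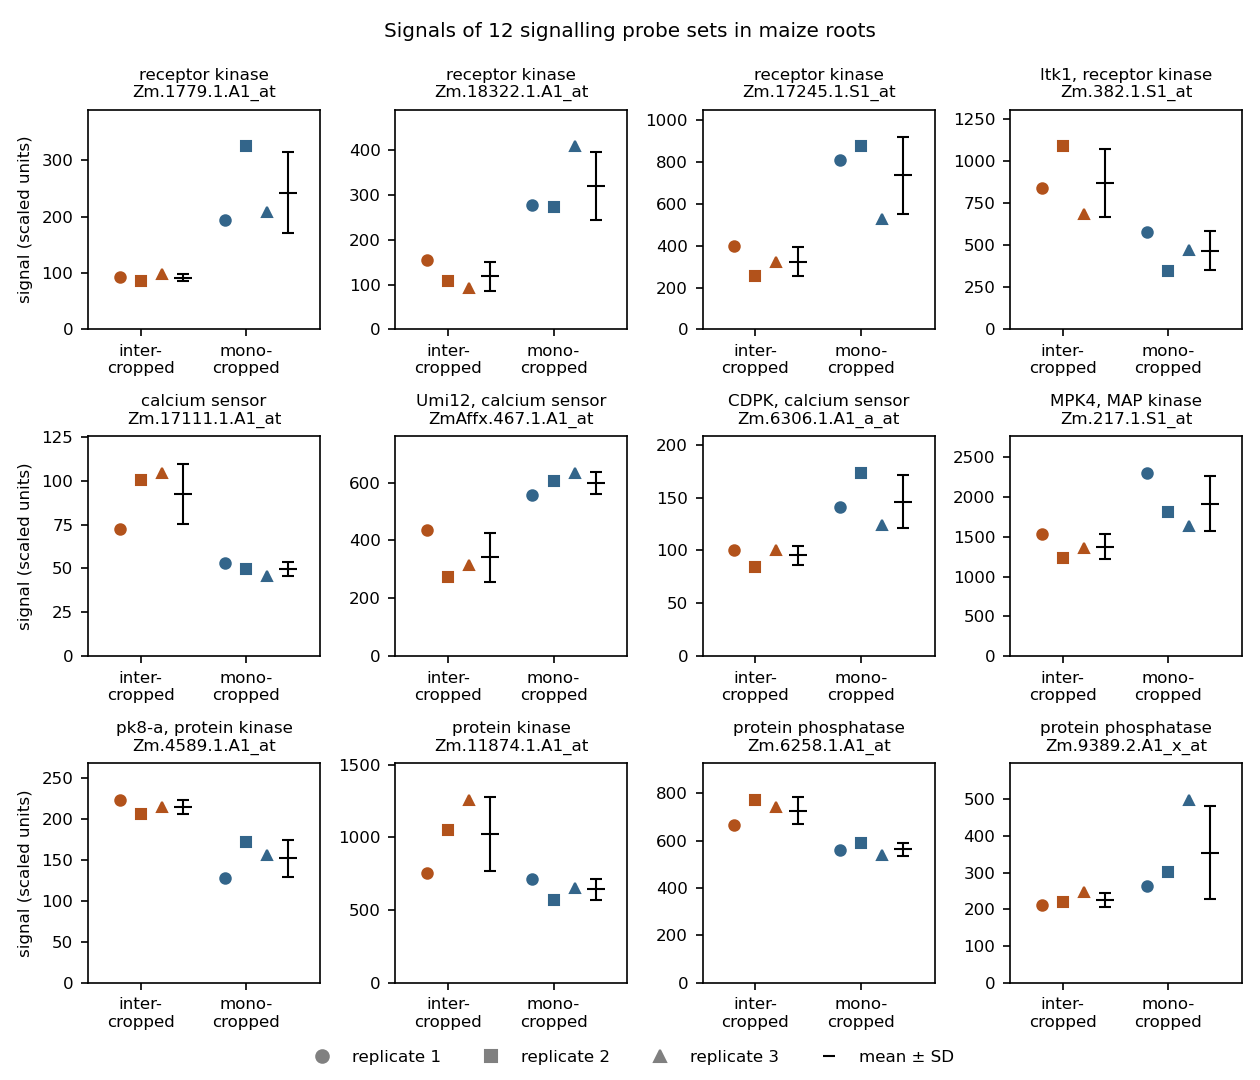
Each panel shows the signals of 1 probe set in scaled units on a linear axis from 0, intercropped arrays in orange on the left and monocropped arrays in blue on the right; marker shapes are replicate numbers and black bars are mean ± SD of 3 arrays. They are the members without overlap and with the smallest p of their class, 4, 3, 1, 2 and 2 of the 5 classes in the order of the text, so the separation is how they were picked; ltk1, Zm.17111.1.A1_at, pk8-a, Zm.11874.1.A1_at and Zm.6258.1.A1_at are higher in intercropped roots and the other 7 lower.

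The other protein kinases, 58 probe sets, were divided between both directions. In intercropped roots 25 were higher and 33 lower. The median log2 difference was -0.06, and 6 (10.3%) had an unadjusted p under 0.05, 3 in each direction, beside 11.1% of all probe sets. The putative kinase pk8-a (Zm.4589.1.A1_at) had 224, 207 and 215 in intercropped roots, against 128, 172 and 156 in monocropped roots, with a log2 difference of 0.51 ± 0.15 (SE; limma adjusted p = 0.312). Zm.11874.1.A1_at, weakly similar to a serine/threonine kinase, had 755, 1049 and 1260 in intercropped roots, against 712, 569.5 and 649 in monocropped roots, with a log2 difference of 0.64 ± 0.20 (SE; limma adjusted p = 0.335). Both had all intercropped arrays above all monocropped arrays, as did the dim putative kinase Zm.2946.1.S1_at at 0.34 ± 0.14. The lowest log2 difference of all members, -1.57 ± 0.61 (SE), belonged to the putative protein kinase Zm.10830.1.S1_at, named after its values were seen, with 76.5, 268 and 178 in intercropped roots, against 197, 657 and 738 in monocropped roots. Its arrays scattered within both groups, which overlapped.

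The maize gene for an SNF1-related kinase, a kind that in plants responds to low sugar and energy, had lower signals in intercropped roots. So did a transcript weakly similar to an SNF1-like kinase, whose title does not say whether it has that role. The maize gene SnrK1 (Zm.13240.1.S1_at) had 387, 364 and 422 in intercropped roots, against 468, 579.6 and 489 in monocropped roots, with a log2 difference of -0.39 ± 0.14 (SE; limma adjusted p = 0.378), without overlap. The SNF1-like kinase Zm.8622.1.A1_at, the brightest of the class, had 2450, 1958 and 2196 in intercropped roots, against 2926, 2421 and 2801 in monocropped roots, with a slight overlap and a log2 difference of -0.30 ± 0.12 (SE; limma adjusted p = 0.415). The 4 probe sets of the regulatory betagamma subunits overlapped between the groups, from -0.08 to 0.22. For casein kinase 2, an enzyme of catalytic and regulatory subunits, 3 of the 6 probe sets were higher and 3 lower. Its catalytic subunit cka2 (Zm.5181.2.A1_a_at) was at -0.16 ± 0.11 and its regulatory subunit CK2B2 (Zm.808.1.A1_at) at 0.18 ± 0.13, both without overlap and in opposite directions. The protein kinase C inhibitor fmi1 (Zm.184.1.S1_at) had 1643, 1457 and 1583 in intercropped roots, against 1596, 1861 and 1985 in monocropped roots, with overlap and a log2 difference of -0.21 ± 0.11.

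Protein phosphatases were level as a class, and the 6 probe sets with all intercropped arrays below came mainly from 1 transcript cluster. Of 31 probe sets 16 were higher and 15 lower. The median log2 difference was 0.02, and 4 (12.9%) had an unadjusted p under 0.05, 2 in each direction, beside 11.1% of all probe sets. In 1 the intercropped arrays all lay above and in 6 all below, together 22.6%, beside 17.0% of all probe sets. The catalytic subunit of protein phosphatase 1, prh1 (Zm.38.1.S1_at), had 866, 977 and 922 in intercropped roots, against 1096, 1068 and 1105 in monocropped roots, with a log2 difference of -0.24 ± 0.10 (SE; limma adjusted p = 0.441). Every intercropped array was below every monocropped one. A second phosphoprotein phosphatase (Zm.6258.1.A1_at), with strong similarity to the Arabidopsis enzyme, went the other way, with 667, 774 and 742 in intercropped roots, against 559, 591 and 538 in monocropped roots. Here too the groups did not overlap, and the log2 difference was 0.37 ± 0.12 (SE; limma adjusted p = 0.335).

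Type 2C phosphatases, some of which in Arabidopsis hold back abscisic acid signalling, numbered 19 probe sets, 7 higher and 12 lower. Of these, 5 belong to 1 transcript cluster, Zm.9389, and ranged from -0.60 to -0.47. Its probe set Zm.9389.2.A1_x_at had 211, 220.0 and 248 in intercropped roots, against 262, 300.3 and 499 in monocropped roots, with a log2 difference of -0.59 ± 0.24 (SE; limma adjusted p = 0.433), and Zm.9389.3.A1_a_at had 159.8, 178 and 169 in intercropped roots, against 203, 212 and 392 in monocropped roots. The groups did not overlap, yet monocropped replicate 3 stood far above the others, and without it the differences were -0.31 and -0.30. The brightest type 2C phosphatase, Zm.6344.1.A1_at, had 2976, 2702 and 2891 in intercropped roots, against 3294, 2337 and 2782 in monocropped roots, with overlap and a log2 difference of 0.04 ± 0.13 that was -0.08 without monocropped replicate 2. The scaffold subunit A of phosphatase 2A (Zm.2099.2.S1_at) had 1302, 1573 and 1145 in intercropped roots, against 1474, 1232 and 1217 in monocropped roots. Its groups overlapped as well, with a log2 difference of 0.03 ± 0.15 whose sign turned in 4 of the alternatives. The kinase-associated phosphatase KAPP (Zm.16584.1.S1_at), which in Arabidopsis binds receptor kinases, was at 0.23 ± 0.17 with overlapping groups.

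**Figure D5:**
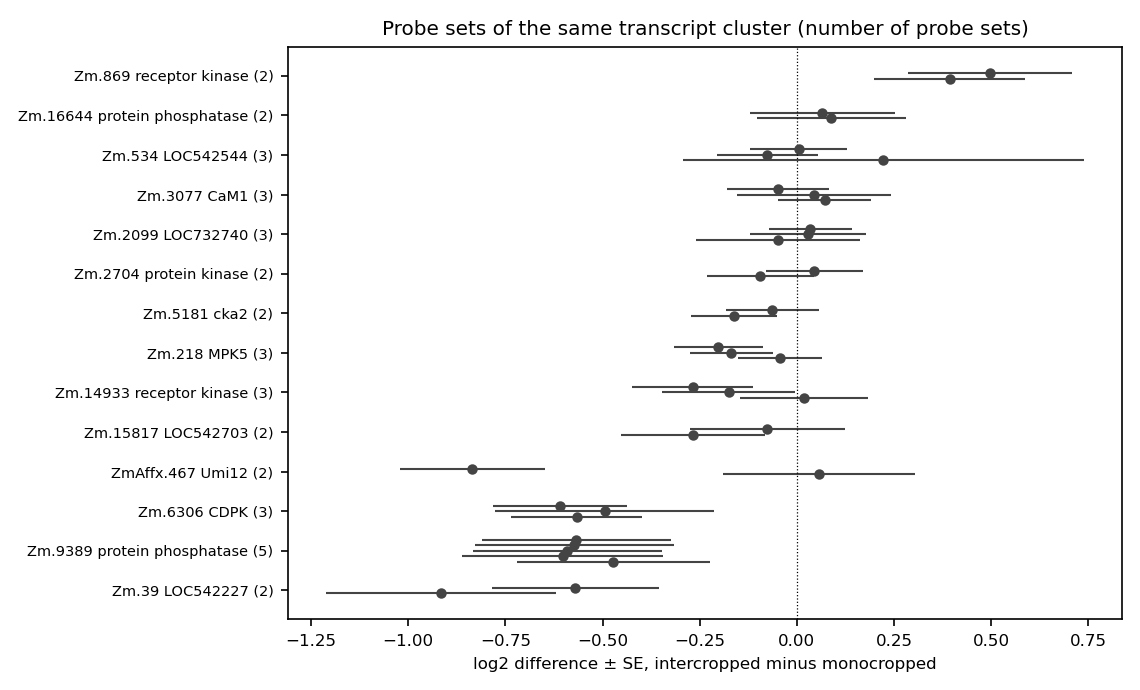
Points are log2 differences, intercropped minus monocropped, with their SE, of the 37 probe sets that share one of 14 transcript clusters, 1 row per cluster with the number of its probe sets in brackets. In 8 of the 14 clusters all probe sets have the same sign; the 2 probe sets of Umi12 lie apart, at -0.84 and 0.06, while the 5 of Zm.9389 lie between -0.60 and -0.47.

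Where a transcript cluster had several probe sets their differences can be compared, but they are not independent readings. In 8 of the 14 clusters every probe set had the same sign. Among these are Zm.15817, Zm.16644, Zm.39 and Zm.869, in which all probe sets are named for the same sequence. Such probe sets can share probes, so their equal sign is only a weak check. Probe sets of 1 cluster lay farthest apart in Umi12, and in 3 of the 6 clusters with mixed signs all differences lay within 0.1 of 0. With 1 probe set per cluster, the one with the highest mean log2 signal, the count at an unadjusted p under 0.05 was 11 higher and 15 lower, and the median log2 difference over the members was -0.03.

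Other signalling genes outside the 187 were described by lists of titles, and 0 of their probe sets were called. Small GTPases and G proteins, switches that act between receptors and the cytoskeleton or vesicles, had 30 probe sets, 18 higher and 12 lower in intercropped roots, with 7 higher and 0 lower at an unadjusted p under 0.05, beside 5.6% and 5.51% of all probe sets. A Rab-type GTPase (Zm.3050.1.A1_a_at), which directs vesicles, was at 0.79 ± 0.22 (SE), with all intercropped arrays above all monocropped arrays. The 7 included 3 probe sets of that 1 Rab cluster, while a further one, Zm.3050.2.A1_at, was at 0.10 ± 0.15 with overlapping groups. Over the 30 probe sets the intercropped arrays all lay above in 5 and all below in 4, together 30.0%, beside 17.0% of all probe sets.

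The list of calcium stores and pumps, which also holds annexins, had 17 probe sets, 7 higher and 10 lower. At an unadjusted p under 0.05 there were 3 in each direction, together 35.3%, beside 11.1% of all probe sets. The 3 higher ones were all annexins, Zm.74.1.S2_at and Zm.74.1.S1_at of annexin p35 and the annexin-like Zm.17977.1.A1_s_at. The 3 lower ones were cap1 and a probe set each of calreticulin crt2 and calnexin CNX. The other probe sets of crt2 and CNX did not reach that p. Annexin p35 (Zm.74.1.S2_at), a protein that binds membranes when calcium rises, had 1403, 1906 and 1113 in intercropped roots, against 889, 704 and 1025 in monocropped roots, with a log2 difference of 0.74 ± 0.22 (SE; limma adjusted p = 0.317). The calcium ATPase cap1 (Zm.509.1.S1_at), which pumps calcium out of the cytosol, had 325, 323 and 328 in intercropped roots, against 450.0, 422 and 484 in monocropped roots, with a log2 difference of -0.47 ± 0.12 (SE; limma adjusted p = 0.266). In annexin p35 the intercropped arrays were all above and in cap1 all below the monocropped arrays, and the 3 intercropped signals of cap1 were almost equal. Calcineurin B-like and EF-hand proteins had 2 probe sets, at 0.36 and -0.37, the first of which was 0.13 without monocropped replicate 2.

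Two-component signalling, the cytokinin pathway, had 12 probe sets, 6 in each direction. The response regulator RR5 (Zm.13810.1.S1_at) was at 0.46 ± 0.17 (SE) and crr1 (Zm.51.1.A1_at) at -0.42 ± 0.15, both without overlap. The NADPH oxidases, which release reactive oxygen at the plasma membrane, had 5 probe sets, 2 higher and 3 lower; the one with the smallest p (Zm.12390.1.A1_at) had 223, 196 and 135 in intercropped roots, against 134, 53.6 and 126 in monocropped roots, and its log2 difference of 0.90 ± 0.37 was 0.48 without monocropped replicate 2. Phospholipid signalling had 16 probe sets, 7 higher and 9 lower, with phospholipase D (Zm.50.1.A1_at) at 0.28 ± 0.14 and diacylglycerol kinase 2 (Zm.7836.1.S1_at) at -0.29 ± 0.15. The 14-3-3 proteins, which bind phosphorylated partners, were level in both their probe sets, at -0.12 ± 0.10 for grf1 and -0.01 ± 0.10 for Zm.14467.1.S1_at, with overlapping groups.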

How the data were processed

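The deposited series table holds linear intensities, summarised and scaled by the authors. The submitters' processing notes name GCOS 1.4, without the summary algorithm or the scaling target. A filtered table of the authors repeats these intensities as log2 values. For 12255 probe sets the authors' SAM output, an unpaired comparison with 100 permutations, has a score, a log2 difference, a fold change as a ratio and a q-value in percent, per the file headers.

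Intensities were floored at 1 and converted to log2 with no further normalization. After 179 control probe sets were left out, 13116 probe sets reached 50 on 3 or more of the 6 arrays. These were tested two-sided with limma 3.58.1 under R 4.3.3 (functions lmFit and eBayes, trend=TRUE), and p-values were adjusted over all of them by Benjamini-Hochberg, with a threshold of 0.05. The script was tested on simulated data. Precision is limited by the number of arrays, and the median SE was 0.18. Groups came from the treatment labels. In the other signalling lists the 2 probe sets with the smallest p were named, except 1 result that is not reported here. Alternatives changed the normalization, filter, pseudocount, variance model, replicate block, members and single arrays. The members and lists were chosen with earlier results of these data known, and titles come from an old annotation.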

Additional observations from a re-analysis of the deposited data

How the results depend on the processing

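No member had an adjusted p under 0.05 in limma under any alternative, and no named probe set gained a call. Over the whole array 0 probe sets were called, against 1 with log2 of the signal plus 32, and 0 to 34 with single arrays left out, the 34 without intercropped replicate 1. The median log2 difference of the members was -0.05, and -0.0791 with array medians set equal, -0.0257 with 1 probe set per cluster, -0.0661 with titles alone, and -0.0454 to -0.0164 with single arrays left out. With titles alone the medians were -0.16 for the calcium sensors and -0.17 for the MAP kinase cascade. For the other protein kinases the median was -0.0871 with array medians set equal, -0.0272 with 1 probe set per cluster and -0.0663 to -0.0089 with single arrays left out. With single arrays left out it was -0.12 to -0.0065 for the receptor kinases and -0.13 to 0.0099 for the calcium sensors. At an unadjusted p under 0.05 the members numbered 2 higher and 9 lower with titles alone, where fewer were counted.

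Signs turned for 6 named probe sets whose differences were near 0. With array medians set equal they were -0.0206 for mek1 and -0.0026 for the phosphatase 2A subunit. With single arrays left out the differences ran from -0.0357 to 0.1781 for CaM1, from -0.0128 to 0.0928 for rcalm and from -0.0334 to 0.0403 for mek1. They ran from -0.0848 to 0.1628 for the type 2C phosphatase Zm.6344.1.A1_at, from -0.0934 to 0.1361 for the phosphatase 2A subunit and from -0.0762 to 0.0395 for the 14-3-3 protein Zm.14467.1.S1_at. The cause was not tested.

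Replicate numbers were not used to pair the samples in the main fit. The correlations of deviations from the group means between arrays of the same number were 0.268, -0.0692 and -0.00411. Between arrays of different numbers they ran from -0.2995 to 0.3346, a range that holds those of the same number. With the replicate number as a block, 0 members were called, and 12 were higher and 22 lower at an unadjusted p under 0.05.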
